A study of Mus musculus with 4 samples.

Results

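The genes described here are 36 members of the collagen family, whose fibrillar chains make up the scar of a fibrotic heart, chosen by name from the 43 collagen symbols in the GENCODE vM1 annotation of the mouse genome (build mm9). They were 36 of 41 autosomal collagen genes. *Col20a1*, *Col28a1*, *Col6a4*, *Col6a5* and *Col6a6* were not on the list, nor were the 2 collagen genes on chromosome X. A region of histone H3 acetylated at lysine 27 (H3K27ac, which marks enhancers and promoters in use) was assigned to a gene when its centre lay in the gene body or within 20 kb of either end. By this rule 36 of the 12540 autosomal regions listed for *mdx*IKKβf/f hearts and 89 of the 22935 listed for *mdx*HRTΔIKKβ hearts lay at collagen genes. The flank regions nearest to the limit in *mdx*HRTΔIKKβ were 19.6 kb from *Col13a1* (counted, score 34) and 20.5 kb from *Col6a2* (not counted, score 32). In *mdx*IKKβf/f they were 15.5 kb from *Col9a1* (counted) and 20.5 kb from *Col4a3* (not counted for that gene), each with a score of 30.

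H3K27ac was mapped by ChIP-seq in whole hearts of *mdx* mice aged 7 months. These mice are without dystrophin and develop a fibrotic cardiomyopathy. All hearts were dystrophic and carried floxed IKKβ, the kinase that activates NF-κB. In *mdx*HRTΔIKKβ mice cre recombinase driven by the *Myh6* promoter deleted IKKβ in cardiomyocytes, and *mdx*IKKβf/f mice were littermates without cre. Below, the former are called IKKβ-deleted hearts and the latter control hearts. Each genotype had 1 ChIP library and 1 input library (chromatin sequenced without immunoprecipitation). The study's methods give C57BL/10ScSn as the strain from which the *mdx* colony came, and whether a library came from 1 heart or from several is not given in the sources used here. By this design the other cells of the heart, fibroblasts among them, keep IKKβ, and in a whole heart the acetylation of fibroblasts and of cardiomyocytes cannot be told apart, nor can fewer cells of a type and less acetylation per cell.

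ChIP depth was 57852347 tags for control and 62458751 for IKKβ-deleted hearts, a ratio of 1.08. The libraries were less alike in the approximate efficiency of immunoprecipitation given in the file headers. It was 0.71 for control and 1.26 for IKKβ-deleted hearts, and its part in the counts below was not tested. For each region the lists give a peak score, read here as the tags in its highest 500 bp window, with a lowest value of 29 in control hearts and 30 in IKKβ-deleted hearts. They also give normalized tags (tags of the whole region scaled to 10000000 tags per library) and a fold over input, with 4 as the lowest fold kept. A single tag was worth 0.173 normalized tags in control hearts and 0.16 in IKKβ-deleted hearts. Since there was 1 library per genotype, differences between genotypes were not tested, and all intervals below are 95% intervals that cover counting error only. The heart label was checked on start sites: among 10 cardiomyocyte markers a region lay within 3 kb of an annotated start of 1 (*Ttn*) in control hearts and of none in IKKβ-deleted hearts. Over all autosomal protein-coding genes such a region was found at 5.27% and 9.39%. The start sites of these markers therefore did not bear out the heart label in either list, and 10 genes are too few to set against these shares. Within the gene body plus 20 kb, 4 and 6 of the 10 cardiomyocyte markers had a region. Over all autosomal protein-coding genes this share was 30.2% and 47.5%. In the same window a region was found at 3 and 4 of 10 fibroblast markers and at 3 and 3 of 8 smooth muscle and pericyte markers. It was found at 1 and 5 of 10 endothelial markers and at 5 and 5 of 8 macrophage markers. Of 10 fibroblast markers 1 had a region within 3 kb of an annotated start in each genotype. It was *Postn* in control hearts and *Col1a1* in IKKβ-deleted hearts. None of 8 smooth muscle and pericyte markers had one in either genotype. Of 10 endothelial markers none had one in control hearts and *Cdh5* had one in IKKβ-deleted hearts. Of 8 macrophage markers *Lyz2* and *Mrc1* had one in control hearts and *Lyz2* in IKKβ-deleted hearts. The part of cell type composition in the counts below was not tested.

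Collagens are built of chains with glycine at every turn of a short repeat (Gly-X-Y), wound into triple helices. Fibrillar collagens such as types I and III give scar tissue its tensile strength, type IV forms the sheet of the basement membrane around each cardiomyocyte and capillary, and type VI forms beaded filaments between them. In a damaged heart activated fibroblasts are the main makers of fibrillar collagen, and excess of it stiffens the ventricle. Collagen genes are long and split into many short exons, and those of the fibrillar class encode whole Gly-X-Y repeats.

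The sequences behind the regions that the account turns on are shown first, as the middle 300 bases of each region on the plus strand of mm9. The first pair is the only place at any collagen gene where a region of one genotype overlapped a region of the other. It lay in the downstream flank of *Col25a1*, and the capitals mark the 112 bases that the printed stretches share.
*Col25a1* flank, control hearts, chr3:130316054-130316353: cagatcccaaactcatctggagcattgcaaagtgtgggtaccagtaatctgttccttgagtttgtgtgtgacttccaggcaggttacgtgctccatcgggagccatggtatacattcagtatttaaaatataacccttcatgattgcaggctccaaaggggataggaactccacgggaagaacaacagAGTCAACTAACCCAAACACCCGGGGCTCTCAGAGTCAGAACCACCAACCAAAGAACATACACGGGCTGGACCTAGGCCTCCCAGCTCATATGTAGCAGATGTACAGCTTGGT
*Col25a1* flank, IKKβ-deleted hearts, chr3:130316242-130316541: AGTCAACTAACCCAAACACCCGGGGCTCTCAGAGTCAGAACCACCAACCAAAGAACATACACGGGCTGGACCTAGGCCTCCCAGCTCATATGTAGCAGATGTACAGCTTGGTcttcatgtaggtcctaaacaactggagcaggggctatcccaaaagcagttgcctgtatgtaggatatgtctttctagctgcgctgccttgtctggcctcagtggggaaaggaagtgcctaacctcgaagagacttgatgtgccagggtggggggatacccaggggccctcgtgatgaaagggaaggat

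The next set shows regions of fibrillar and basement membrane collagens centred within 3 kb of an annotated start of their gene, all of them from IKKβ-deleted hearts. Capitals mark exon bases of the gene, and a sequence without capitals is intron in full. *Col4a1* is transcribed from the minus strand.
*Col1a1*, around exon 36, chr11:94808239-94808538: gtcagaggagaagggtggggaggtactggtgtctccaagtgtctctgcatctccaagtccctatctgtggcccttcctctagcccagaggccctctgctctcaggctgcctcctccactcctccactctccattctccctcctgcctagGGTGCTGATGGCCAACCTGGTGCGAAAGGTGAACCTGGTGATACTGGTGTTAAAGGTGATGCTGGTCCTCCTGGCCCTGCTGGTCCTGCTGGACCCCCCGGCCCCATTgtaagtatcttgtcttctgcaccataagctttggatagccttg
*Col4a1*, around exon 34, chr8:11219036-11219335: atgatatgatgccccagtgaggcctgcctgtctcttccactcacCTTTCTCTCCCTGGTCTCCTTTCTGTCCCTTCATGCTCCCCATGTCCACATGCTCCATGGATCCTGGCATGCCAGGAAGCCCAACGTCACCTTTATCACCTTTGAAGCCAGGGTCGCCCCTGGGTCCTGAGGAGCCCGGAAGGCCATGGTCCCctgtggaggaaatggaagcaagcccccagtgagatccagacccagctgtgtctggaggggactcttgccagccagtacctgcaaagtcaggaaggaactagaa
*Col5a1*, intron 59, chr2:27875737-27876036: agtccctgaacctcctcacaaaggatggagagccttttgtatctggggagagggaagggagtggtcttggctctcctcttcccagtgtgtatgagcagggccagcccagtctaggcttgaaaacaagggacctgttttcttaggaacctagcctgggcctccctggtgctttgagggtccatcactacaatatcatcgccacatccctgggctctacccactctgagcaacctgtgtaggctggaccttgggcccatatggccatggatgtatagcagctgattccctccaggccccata
*Col24a1*, intron 1, chr3:144957609-144957908: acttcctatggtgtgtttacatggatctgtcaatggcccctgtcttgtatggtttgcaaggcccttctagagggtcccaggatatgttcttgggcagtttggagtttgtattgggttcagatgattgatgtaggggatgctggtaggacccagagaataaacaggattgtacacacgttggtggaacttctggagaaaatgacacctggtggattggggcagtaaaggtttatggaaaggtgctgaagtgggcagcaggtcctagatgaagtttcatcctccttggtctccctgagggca

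The *Col1a1* exon makes the collagen repeat visible in DNA. Its 108 bases are 36 codons, and bases GG, with which every glycine codon starts, stood at 12 of 12 of the positions that begin a group of 9 bases. The 300 printed bases held 2 CpG dinucleotides in *Col1a1*, 3 in *Col4a1* and 1 each in *Col5a1* and *Col24a1*.

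The last set shows the region with the highest peak score of each genotype, in intron 2 of *Col13a1* (control hearts, score 40) and intron 13 of *Col19a1* (IKKβ-deleted hearts, score 50). Capitals mark the longest run in which purines and pyrimidines alternate, where it reached 50 bases.
*Col13a1*, control hearts, chr10:61410472-61410771: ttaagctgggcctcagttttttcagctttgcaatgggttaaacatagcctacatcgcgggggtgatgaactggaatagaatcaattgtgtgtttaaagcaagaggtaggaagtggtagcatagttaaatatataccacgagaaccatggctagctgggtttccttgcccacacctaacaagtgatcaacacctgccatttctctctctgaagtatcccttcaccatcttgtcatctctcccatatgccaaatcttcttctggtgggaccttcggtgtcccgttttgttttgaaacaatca
*Col19a1*, IKKβ-deleted hearts, chr1:24460242-24460541: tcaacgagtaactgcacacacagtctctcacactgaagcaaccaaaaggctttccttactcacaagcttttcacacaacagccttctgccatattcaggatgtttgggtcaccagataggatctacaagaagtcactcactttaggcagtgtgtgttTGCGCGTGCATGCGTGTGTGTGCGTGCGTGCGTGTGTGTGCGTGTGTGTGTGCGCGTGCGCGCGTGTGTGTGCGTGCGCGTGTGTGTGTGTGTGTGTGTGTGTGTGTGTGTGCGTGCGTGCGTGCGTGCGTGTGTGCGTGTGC

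The strongest collagen window of IKKβ-deleted hearts thus sat on a low-complexity repeat, with 143 of its 300 printed bases in a single run of mostly TG and CG steps. This measure was chosen after the sequence had been seen. Over the middle 500 bases, 2 of 36 collagen regions in control hearts (5.56%) and 2 of 89 in IKKβ-deleted hearts (2.25%) held a run of 50 or more, against 1.74% and 2.0% of the other autosomal regions. The regions concerned were in *Col19a1* (51 bases) and *Col22a1* (55) in control hearts, and in *Col19a1* (165) and *Col8a1* (92) in IKKβ-deleted hearts. The part of such repeats in the scores was not tested.

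Collagen genes held more H3K27ac regions in IKKβ-deleted hearts than in control hearts. There were 36 distinct regions in control hearts (exact Poisson interval 25.2 to 49.8) and 89 in IKKβ-deleted hearts (71.5 to 109.5), a ratio of 2.47 (1.66 to 3.75). The same ratio over all autosomal regions was 1.83. Of the collagen regions 71.2% came from IKKβ-deleted hearts (exact binomial interval 62.4 to 78.9%), against 64.7% of all autosomal regions. The genome-wide share lies inside the interval of the collagen share, so at this number of regions a collagen excess beyond the genome-wide one was not detectable. The ratio also followed the calling threshold. When both lists were held to the same multiple of the tags expected per window, which raised the lowest IKKβ-deleted score to 32, 36 and 56 collagen regions were left, a ratio of 1.56, and the ratio over all autosomal regions was 1.11.

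At least 1 region was found at 21 of the 36 genes in control hearts (58.3%) and at 29 in IKKβ-deleted hearts (80.6%). Over all 21418 autosomal protein-coding genes the same windows held a region at 30.2% and at 47.5%. A region in both genotypes was found at 19 genes and in either at 31. IKKβ-deleted hearts had more regions than control hearts at 21 collagen genes (background 36.2% of genes) and fewer at 5 (background 13.9%), which were *Col4a2*, *Col6a2*, *Col8a1*, *Col9a1* and *Col19a1*. At *Col1a2*, *Col4a3*, *Col6a1*, *Col6a3* and *Col17a1* the number was the same in both. The background shares in this paragraph were not matched for window length.

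**Figure D1:**
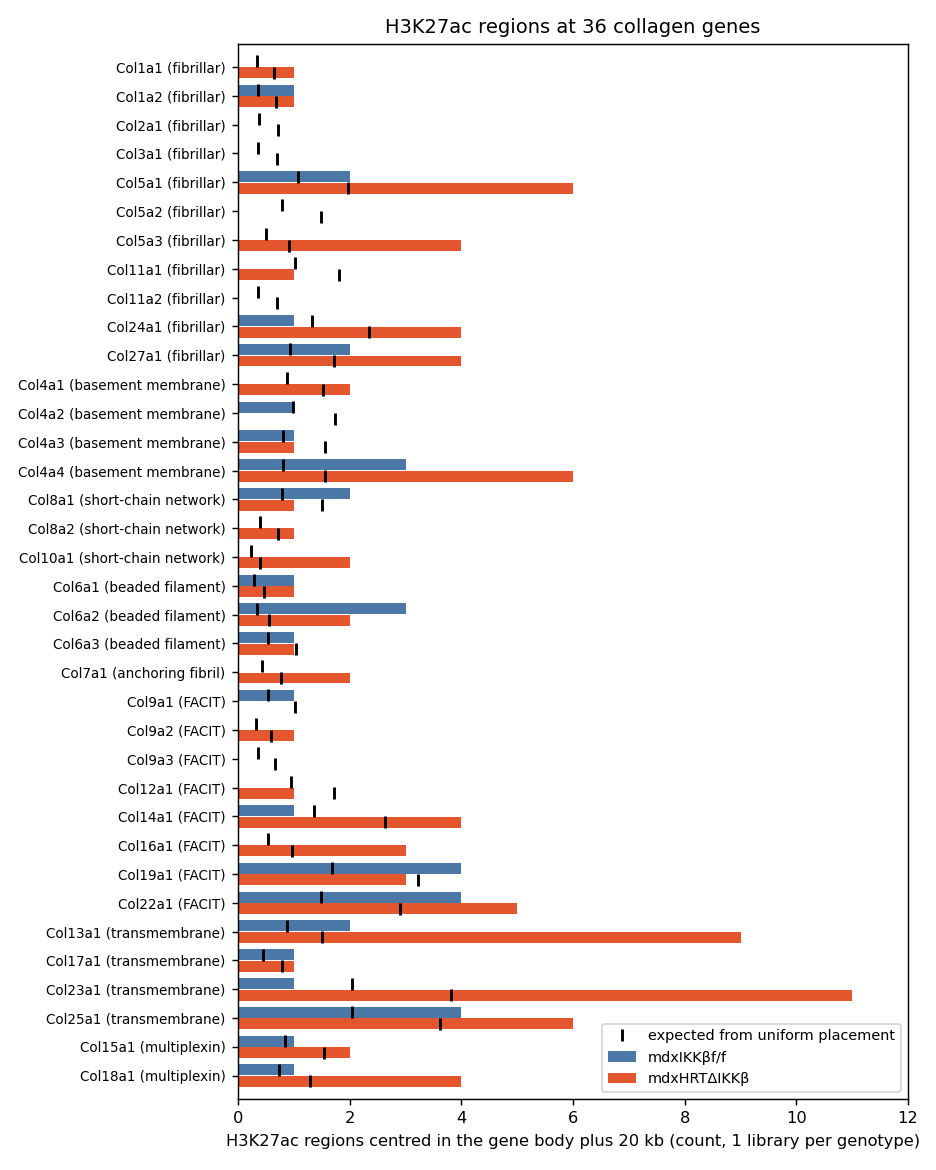
Number of H3K27ac regions (x axis, count) centred in the gene body plus 20 kb of each of the 36 collagen genes (y axis, with the collagen class), in 1 library of mdxIKKβf/f (blue) and 1 of mdxHRTΔIKKβ (red), with black ticks for the number expected from uniform placement on the same chromosome. *Col23a1* with 11 regions and *Col13a1* with 9 in mdxHRTΔIKKβ stand furthest to the right, and 5 genes have no bar in either genotype.

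Collagen genes are long, and a long window catches more regions. The median window was 149.7 kb for collagen genes and 55.5 kb for protein-coding genes. Among the 764 genes with windows of 150 to 200 kb, 52.7% had a region in control hearts and 72.0% in IKKβ-deleted hearts, while of the 11 collagen genes of that length 8 and 9 had one. These collagen genes had a mean of 1.27 regions in control hearts and 3.09 in IKKβ-deleted hearts, against 0.908 and 1.69 for all genes of that length. For windows of 50 to 75 kb the means were 0.444 and 0.889 over 9 collagen genes against 0.345 and 0.674 over 6700 genes. In IKKβ-deleted hearts the collagen mean was the higher one in every length class but that of 100 to 150 kb, where 3 collagen genes had a mean of 1 region against 1.27. In control hearts the order varied, with the collagen mean below that of all genes in windows up to 50 kb (1 gene, no region), of 75 to 100 kb (0.4 against 0.498) and over 300 kb (3 against 3.09).

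**Figure D2:**
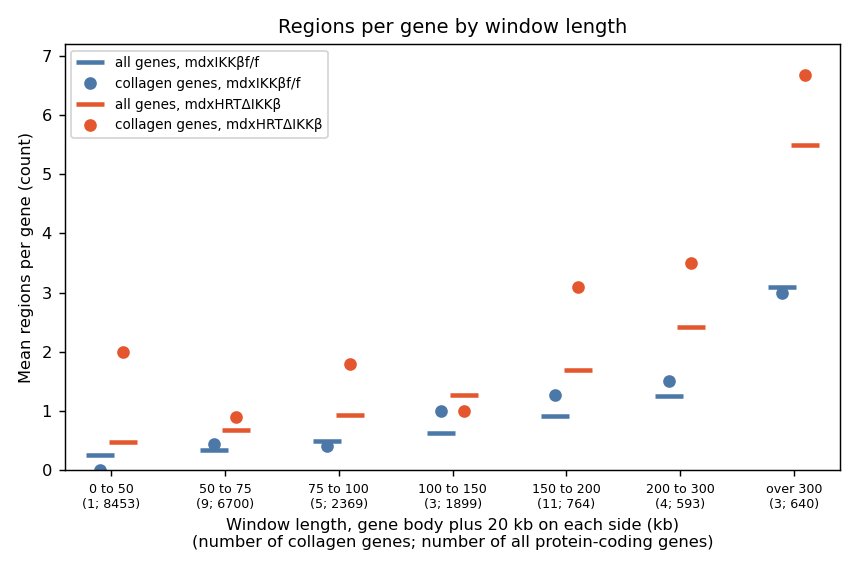
Mean number of H3K27ac regions per gene (y axis, count) by length of the window (x axis, kb), for collagen genes (points) and all autosomal protein-coding genes (dashes) in mdxIKKβf/f (blue) and mdxHRTΔIKKβ (red). In windows of 150 to 200 kb, which hold 11 collagen genes, the red point is at 3.09 and the red dash at 1.69, while the blue pair is at 1.27 and 0.908.

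To set the counts against placement on the same chromosomes, the regions of each chromosome were spread evenly over its assembled bases, and the number falling into the 5.383 Mb covered by the collagen windows was computed. This gave 27.4 regions in control hearts and 50.5 in IKKβ-deleted hearts. The observed count was 1.31 times the expected one in control hearts (0.920 to 1.82) and 1.76 times in IKKβ-deleted hearts (1.41 to 2.17). The windows of all protein-coding genes gave 1.035 and 1.07. The intervals treat regions as independent, though several shared a gene. Collagen windows were richer in G and C than the autosomes, with 44.5% against 41.9%. With the even spread made within 10 classes of GC content, the expected counts were 39.0 and 71.6 and the ratios 0.923 (0.646 to 1.28) and 1.24 (0.998 to 1.53), while all protein-coding windows gave 0.903 and 0.928. In control hearts the collagen count was therefore within counting error of the expected one in both ways. In IKKβ-deleted hearts it was above the expected one with the even spread over chromosomes. By GC content the lower bound of 0.998 lay just under 1, and above the 0.928 of all protein-coding windows.

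Among the fibrillar collagens, the chains of scar and tendon fibres, 6 regions were found in control hearts and 21 in IKKβ-deleted hearts over 11 genes. The observed count was 0.816 times the expected one in control hearts (0.299 to 1.78) and 1.55 times in IKKβ-deleted hearts (0.961 to 2.37). *Col1a1*, which encodes the major chain of type I collagen, had no region in control hearts, where the nearest lay 70.5 kb from the gene. In IKKβ-deleted hearts it had 1, centred in exon 36 at 10.8 kb from the 5′ end, with a score of 39, 7.2 normalized tags (5.26 to 9.64) and 6.43-fold over input. *Col1a2*, the partner chain, had 1 region in each genotype. In control hearts it lay in intron 30 with a score of 33 and 8.64 normalized tags (6.41 to 11.4), and in IKKβ-deleted hearts in intron 27 with a score of 31 and 4.80 normalized tags (3.24 to 6.86). The centres of the *Col1a2* regions were 2.43 kb apart, and neither region overlapped the other. The 5′ ends of both type I genes were thus free of regions in both lists.

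*Col3a1*, the type III chain that is laid down early in scars, had no region in either genotype. Its neighbour *Col5a2*, on the same stretch of chromosome 1, had none either, nor did *Col2a1* and *Col11a2*, the cartilage chains. The nearest region to *Col3a1* was 168 kb from the gene in control hearts and 383 kb in IKKβ-deleted hearts. For *Col5a2* these distances were 84.5 and 230 kb. The expected number of regions in the *Col3a1* window was 0.36 in control hearts and 0.69 in IKKβ-deleted hearts, so a count of 0 at this gene carries little information. *Col9a3*, a chain of the type IX collagen of cartilage, was the only other gene with none.

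*Col5a1*, a chain of the type V collagen that nucleates type I fibrils, had 2 regions in control hearts and 6 in IKKβ-deleted hearts, against 1.07 and 1.97 expected. Those of control hearts lay 13.5 kb upstream of the gene (score 32, 5.36 normalized tags) and in intron 32 (score 30, 5.53). In IKKβ-deleted hearts a pair of regions lay in intron 1 at 5.66 and 6.86 kb from the 5′ end with scores of 30 and 32, and the others lay in introns 4, 4, 46 and 59 with scores of 35, 32, 30 and 35. Between the *Col5a1* regions of one genotype and those of the other the smallest distance was 16.6 kb. *Col5a3*, a second type V chain, had no region in control hearts and 4 in IKKβ-deleted hearts with scores of 30, 40, 32 and 30, of which 1 lay in intron 1 at 2.68 kb from the 5′ end.

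*Col24a1* and *Col27a1*, fibrillar chains of developing bone and cartilage, held the widest regions. A region of 935 bp in intron 34 of *Col24a1* had 10.7 normalized tags (8.22 to 13.7), the most at any collagen gene in control hearts, at a score of 33. In IKKβ-deleted hearts the most, 11.7 (9.16 to 14.7), came from a region of 981 bp in intron 7 of *Col27a1* with a score of 37. *Col24a1* had 1 region in control hearts and 4 in IKKβ-deleted hearts, and *Col27a1* had 2 and 4. The scores of both wide regions were within the range of the 500 bp regions at other collagen genes. *Col11a1*, a chain found inside thin cartilage fibrils, had none in control hearts and 1 in IKKβ-deleted hearts.

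The 4 type IV genes of the basement membrane had 4 regions in control hearts and 8 in IKKβ-deleted hearts, 1.31 times (0.356 to 3.34) and 1.43 times (0.615 to 2.81) the expected counts. *Col4a1* and *Col4a2*, which are transcribed away from each other and encode the chains of the common α1α1α2 network, had 3 of these regions between them. *Col4a1* had no region in control hearts and 2 in IKKβ-deleted hearts, in exon 34 (score 39, 5.92 normalized tags) and intron 18 (score 34, 5.44). *Col4a2* had 1 region in control hearts, in its downstream flank (score 30, 5.01 normalized tags), and none in IKKβ-deleted hearts. No region lay within 3 kb of the adjoining 5′ ends of the pair in either genotype. *Col4a4* had 3 regions in control hearts with scores of 29, 30 and 31, and 6 in IKKβ-deleted hearts with scores of 30, 30, 30, 34, 39 and 30. Of these the last in each genotype was shared with the window of *Col4a3*, its head-to-head neighbour, which had no other region. In IKKβ-deleted hearts that region was centred 3.06 kb inside *Col4a3*, just beyond the 3 kb used for start sites.

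The type VI genes, whose chains form beaded filaments and are mutated in a form of muscular dystrophy, had 5 regions in control hearts and 4 in IKKβ-deleted hearts. Here alone among the 8 classes the control count was the higher one. It was 4.39 times the expected count in control hearts (1.43 to 10.2) and 1.93 times in IKKβ-deleted hearts (0.527 to 4.95), and neither interval allows for the choice of 1 class among 8. By GC content 2.37 and 4.33 regions were expected, and the ratios were 2.11 (0.686 to 4.93) and 0.924 (0.252 to 2.37), so the control count was then within counting error of the expected one. *Col6a1* had 1 region in each genotype, in intron 3 (score 30) in control hearts and in exon 22 (score 36) in IKKβ-deleted hearts, 7.78 kb apart. *Col6a2* had 3 regions in control hearts, in intron 15 (score 31) and at 3.10 and 11.1 kb upstream (scores 31 and 37). In IKKβ-deleted hearts it had 2, in intron 1 (score 42, 7.85 normalized tags) and in the downstream flank (score 32). *Col6a3* had 1 in each, in intron 1 (score 29) in control hearts and 13.1 kb upstream (score 37) in IKKβ-deleted hearts. Each of these 3 genes thus had a region in both genotypes, at different positions.

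**Figure D3:**
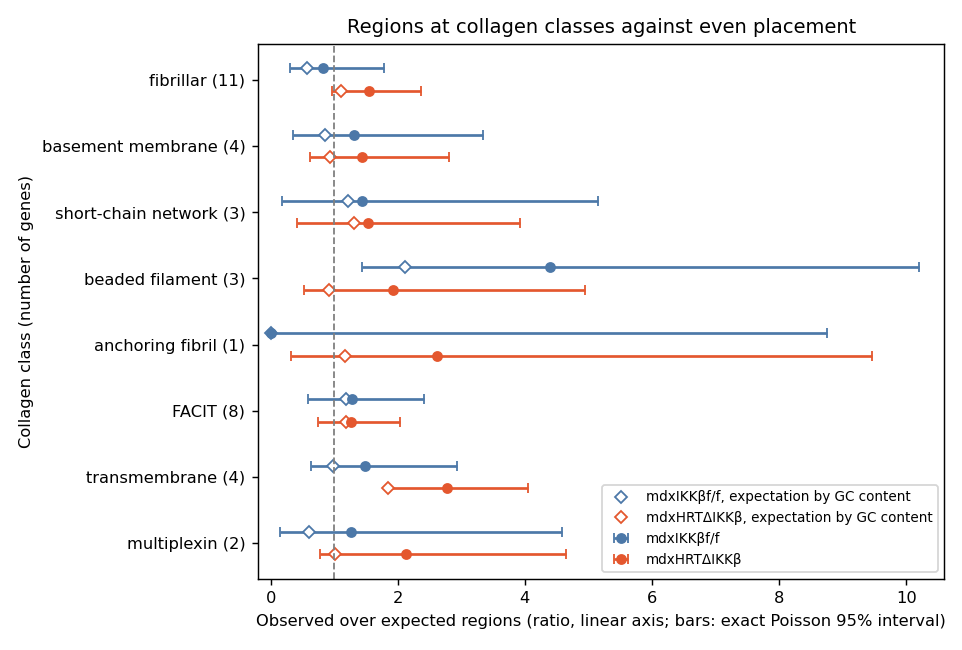
Observed over expected number of regions (x axis, ratio on a linear scale) for the 8 collagen classes (y axis, with the number of genes), in mdxIKKβf/f (blue) and mdxHRTΔIKKβ (red). Filled points with exact Poisson 95% intervals use an even spread over each chromosome, open diamonds the spread within 10 classes of GC content, and the dashed line marks 1. The transmembrane class in mdxHRTΔIKKβ is at 2.78 with a lower bound of 1.83, the beaded filament class in mdxIKKβf/f at 4.39 with a lower bound of 1.43 (2.11 by GC content), and every other interval includes 1.

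The transmembrane collagens, which sit in the cell membrane and shed their outer part, held the largest number of regions of any class in IKKβ-deleted hearts. Their 4 genes had 8 regions in control hearts and 27 in IKKβ-deleted hearts, 1.48 times (0.641 to 2.93) and 2.78 times (1.83 to 4.05) the expected counts, and by GC content 0.989 times (0.427 to 1.95) and 1.85 times (1.22 to 2.69). The interval does not allow for the choice of 1 class among 8. *Col23a1* had 1 region in control hearts and 11 in IKKβ-deleted hearts, against 2.03 and 3.82 expected. All but 1 of the 11 lay in introns 1 and 2, the exception being in intron 8, and their scores ran from 30 to 41. A group of 3 sat in intron 1 at 11.1, 12.9 and 15.6 kb from the 5′ end. *Col13a1*, known from the neuromuscular junction, had 2 regions in control hearts and 9 in IKKβ-deleted hearts, against 0.87 and 1.5 expected, with scores from 31 to 39 in IKKβ-deleted hearts. One of the 9 was centred in exon 1 at 0.615 kb from the 5′ end (score 36, 5.76 normalized tags). These 2 genes held 20 of the 89 IKKβ-deleted regions (22.5%) and 3 of the 36 in control hearts (8.33%). Without them, an alternative chosen after the data were seen, 33 and 69 regions were left, a ratio of 2.09. The observed over expected counts for the family were then 1.35 in control hearts and 1.53 in IKKβ-deleted hearts.

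*Col25a1*, a brain and muscle collagen and the longest of the 36 genes at 419 kb, had 4 regions in control hearts and 6 in IKKβ-deleted hearts. Its downstream flank held the overlapping pair printed above. The region at chr3:130315953-130316453 in control hearts and that at chr3:130316141-130316641 in IKKβ-deleted hearts shared 312 bp, with scores of 34 and 34 and normalized tags of 5.19 and 5.12. The nearest start to the pair was that of *Agxt2l1*, at 4.16 and 3.98 kb, and not that of *Col25a1*. *Col17a1*, a hemidesmosome collagen, had 1 region in each genotype, with scores of 29 and 37.

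The fibril-associated collagens (FACITs), which coat fibrils and space them, had 9 regions in control hearts and 17 in IKKβ-deleted hearts over 8 genes, 1.28 times (0.583 to 2.42) and 1.27 times (0.738 to 2.03) the expected counts. *Col22a1*, found at muscle-tendon junctions, had 4 regions in control hearts and 5 in IKKβ-deleted hearts. The control scores ran from 30 to 34 and those of IKKβ-deleted hearts from 30 to 43. *Col19a1*, a collagen of muscle and brain basement membrane zones, had 4 in control hearts with scores of 30, 29, 29 and 39, and 3 in IKKβ-deleted hearts with scores of 34, 35 and 50. *Col14a1*, which binds to fibrils in stretched tissue, had 1 region in control hearts (score 30) and 4 in IKKβ-deleted hearts, of which 1 in intron 40 reached 42. *Col16a1* had none in control hearts and 3 in IKKβ-deleted hearts, with scores of 41, 38 and 35. *Col9a2* and *Col12a1* had 1 each in IKKβ-deleted hearts alone, and *Col9a1* 1 in control hearts alone, which lay in intron 49 of the adjoining *Col19a1*.

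The remaining classes had few regions. The multiplexins *Col15a1* and *Col18a1*, whose ends are cleaved to restin and endostatin, had 2 regions in control hearts and 6 in IKKβ-deleted hearts. *Col15a1* had 1 of them in control hearts, in intron 2 with a score of 36 and 7.61 normalized tags, and 2 in IKKβ-deleted hearts with scores of 31 and 30. *Col18a1* had 1 (score 29) and 4 (scores 36, 30, 31 and 37). The short-chain collagens *Col8a1*, *Col8a2* and *Col10a1*, which form open lattices, had 2 and 4. *Col8a1*, found in vessel walls, had 2 in control hearts and 1 in IKKβ-deleted hearts, and *Col8a2* had 1 in IKKβ-deleted hearts alone, 2.49 kb upstream of its start (score 36). *Col7a1*, the anchoring fibril collagen of skin, had none and 2.

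Counted by gene, 5 collagen genes had 3 or more regions in control hearts (*Col4a4*, *Col6a2*, *Col19a1*, *Col22a1* and *Col25a1*) and 13 in IKKβ-deleted hearts, against 3.4% and 8.77% of all protein-coding genes. These shares were not matched for window length, and collagen windows are the longer ones. The 13 were *Col4a4*, *Col5a1*, *Col5a3*, *Col13a1*, *Col14a1*, *Col16a1*, *Col18a1*, *Col19a1*, *Col22a1*, *Col23a1*, *Col24a1*, *Col25a1* and *Col27a1*. Together 14 genes reached 3 in a genotype.

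**Figure D4:**
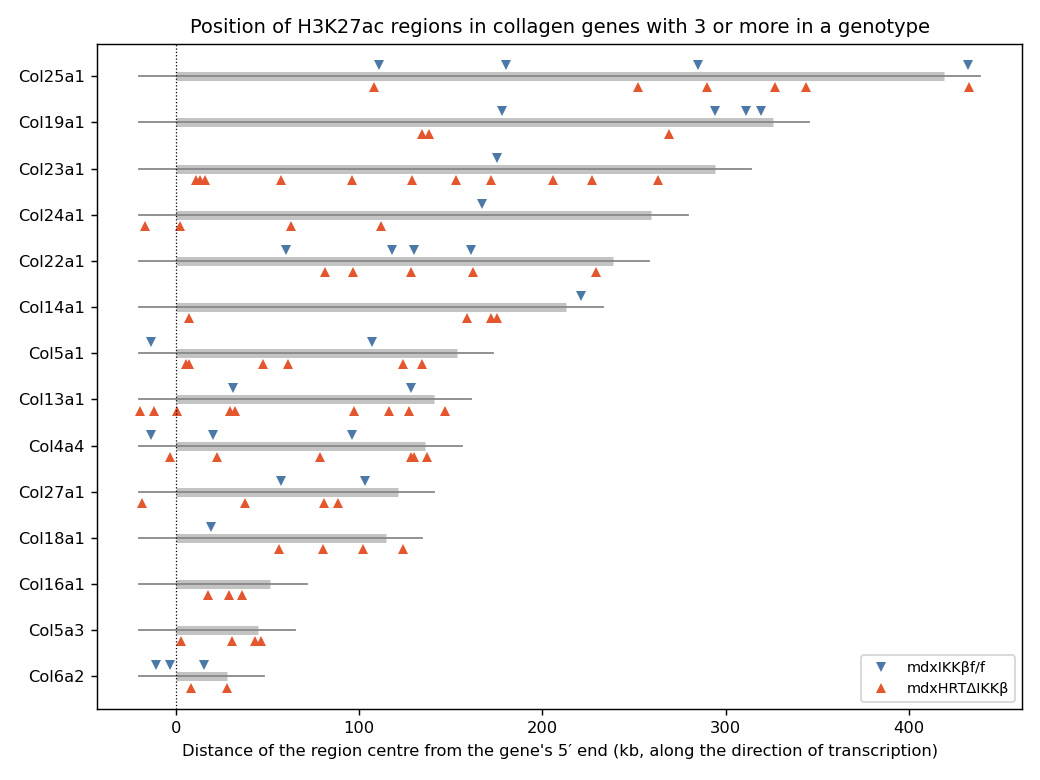
Position of every H3K27ac region at the 14 collagen genes with 3 or more regions in a genotype, as the distance of its centre from the gene's 5′ end (x axis, kb, in the direction of transcription). Thick grey bars are gene bodies, thin grey lines the 20 kb flanks, blue triangles mdxIKKβf/f and red triangles mdxHRTΔIKKβ. Regions are scattered along the genes rather than gathered at the 5′ end, and only *Col13a1*, *Col24a1* and *Col5a3* have a red triangle within 3 kb of it.

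Most collagen regions lay inside genes and away from promoters. In introns lay 28 of 36 regions in control hearts (77.8%) and 67 of 89 in IKKβ-deleted hearts (75.3%), in exons 2 and 7, and in the flanks 6 and 15 in all, of which 3 and 7 were upstream. Gene bodies made up 75.6% of the bases in the windows and exons 4.03%, so most regions would fall inside genes under even placement too. An annotated start of the gene, internal transcript starts included, lay within 3 kb of 2 regions in control hearts and of 15 in IKKβ-deleted hearts. These were at 2 genes (*Col13a1* and *Col15a1*) and at 13 genes, where the background was 5.27% and 9.39% of protein-coding genes. The 13 were *Col1a1*, *Col4a1*, *Col5a1*, *Col5a3*, *Col7a1*, *Col8a2*, *Col9a2*, *Col13a1*, *Col15a1*, *Col16a1*, *Col19a1*, *Col22a1* and *Col24a1*. Most of these starts were internal ones. Within 3 kb of the outermost 5′ end lay no region in control hearts and 4 in IKKβ-deleted hearts, at *Col5a3*, *Col8a2*, *Col13a1* and *Col24a1*. The share of all genes with a region at the outermost 5′ end was not computed, so these counts are a description only. The number of annotated starts differs between genes and was not adjusted for.

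The collagen regions had scores close to those of the rest of the lists, near the lowest kept. The median peak score was 31 in control hearts (range 29 to 40) and 33 in IKKβ-deleted hearts (30 to 50), against 31 and 32 for the other autosomal regions. Within 5 tags of the threshold lay 30 of 36 regions (83.3%) and 63 of 89 (70.8%), against 79.7% and 77.7% of the others. Median normalized tags were 5.28 in control hearts and 5.44 in IKKβ-deleted hearts, against 5.36 and 5.12. At least 8-fold over input were 4 of 36 regions (11.1%) and 14 of 89 (15.7%), against 14.9% and 20.7% of the others. The largest fold, 34.3, was that of a *Col14a1* region in IKKβ-deleted hearts with a score of 30 whose input held no tag and was set to 0.5. Median GC content of the middle 500 bases was 47.8% in control hearts and 50.6% in IKKβ-deleted hearts, against 47.8% in the other regions of both lists.

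**Figure D5:**
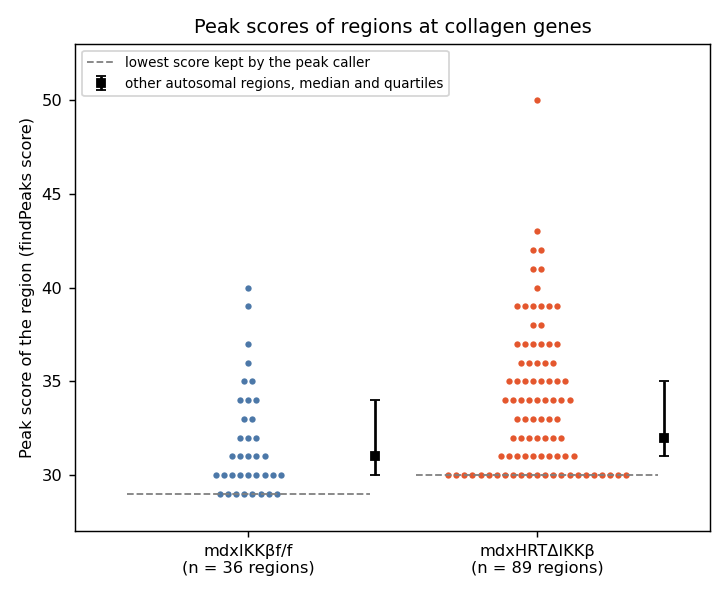
Peak score (y axis, findPeaks score) of each H3K27ac region at collagen genes in mdxIKKβf/f (blue, 36 regions) and mdxHRTΔIKKβ (red, 89 regions), 1 point per region, beside the median and quartiles of the other autosomal regions (black squares and bars) and the lowest score kept (dashed lines at 29 and 30). Points crowd at the lines, with medians of 31 and 33, and the *Col19a1* region at 50 stands alone.

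Overlap between the genotypes was low at collagen genes, as it was over the lists as a whole. Only the *Col25a1* pair overlapped, which is 1 of 36 regions in control hearts (2.78%, exact binomial interval 0.0703 to 14.5%) and 1 of 89 in IKKβ-deleted hearts (1.12%, 0.0284 to 6.10%). Over all autosomal regions 3.18% and 1.74% overlapped, inside both intervals. Centres within 3 kb of a region of the other genotype were found for 9 of 36 regions in control hearts (25%, 12.1 to 42.2%) and 10 of 89 in IKKβ-deleted hearts (11.2%, 5.52 to 19.7%), at *Col1a2*, *Col4a4*, *Col13a1*, *Col22a1*, *Col23a1* and *Col25a1*. Over all autosomal regions the shares were 10.8% and 6.07%, below the interval in control hearts and inside it in IKKβ-deleted hearts. Several of these regions shared a gene and are not independent, and the difference was not tested. The closest pairs after that of *Col25a1* were 0.631 kb apart in intron 40 of *Col22a1* and 0.812 kb apart in intron 2 of *Col13a1*. The median distance to the nearest region of the other genotype was 17.0 kb in control hearts and 41.4 kb in IKKβ-deleted hearts, against 25.7 and 50.7 kb over all autosomal regions.

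Motifs were searched in the middle 500 bases on both strands. The κB motif, bound by NF-κB, was found in 4 of 36 regions in control hearts (11.1%) and 6 of 89 in IKKβ-deleted hearts (6.74%), against 5.30% and 5.34% of the other autosomal regions. The AP-1 motif (TGANTCA) was found in 5 (13.9%) and 8 (8.99%), against 14.3% and 14.1%. The GC box (GGGCGG), bound by Sp1, was found in 1 (2.78%) and 4 (4.49%), against 7.45% and 6.75%. None of the 3 motifs can contain another. Every one of these shares rests on 8 regions or fewer, and they were not tested.

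Genes that process and turn over collagen give the setting. Over 51 genes in 4 lists, 38 regions were found in control hearts and 56 in IKKβ-deleted hearts, a ratio of 1.47, which were 1.61 times (1.14 to 2.21) and 1.30 times (0.985 to 1.69) the counts from even placement. By GC content 34.1 and 62.5 were expected. At least 1 region was found at 22 (43.1%) and 27 (52.9%) of these genes, whose median window was 67.0 kb. Of all genes with windows of 50 to 75 kb, 26.8% and 45.9% had one. Only the median window was matched to this band, not the window of each gene. The lists are small, and the counts by list are given as a description beside those shares. Among 21 processing genes 10 had a region in control hearts and 11 in IKKβ-deleted hearts, 7 of them in both. *Adamts14*, which trims the ends of procollagen, had 2 and 6, and *Loxl2*, a cross-linking oxidase, had none and 3. *Lox*, the main cross-linking enzyme of heart scar, had none and 1 (score 33), and *Serpinh1*, the collagen chaperone HSP47, none and 2. *Plod1*, *Adamts3*, *Pcolce* and *Pcolce2* also had more in IKKβ-deleted hearts. Fewer were found there at *P4ha3* (3 and none), *Bmp1* (2 and none) and *Plod3* (1 and none). The same held for *Adamts2* (3 and 2) and *Loxl4* (2 and 1). Of 10 turnover genes 3 had a region in control hearts and 3 in IKKβ-deleted hearts, with *Mmp2* and *Timp2* in both. *Mmp9*, a gelatinase, had 2 and none, *Mmp2* had 2 and 3, and *Mmp3* had none in either. Of 10 matrix partners 3 and 7 had a region (2 in both), among them *Fn1* (fibronectin) with 1 and 3, *Eln* (elastin) with none and 2, and *Postn* (periostin) with 1 and none. Of 10 fibrosis signalling genes 6 had a region in control hearts and 6 in IKKβ-deleted hearts, but only *Tgfbr1*, *Smad3* and *Pdgfrb* were among both. *Smad3*, which carries the TGFβ signal to the nucleus, had 2 and 5, and *Tgfb1* had none and 1. *Tgfb2* (none and 2), *Tgfb3* (none and 1) and *Tgfbr1* (1 and 2) also had more in IKKβ-deleted hearts. *Pdgfra* (2 and none), *Pdgfrb* (2 and 1), *Tgfbr2* (1 and none) and *Smad2* (1 and none) had fewer there.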

How the data were processed

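H3K27ac ChIP-seq was performed by the authors on whole hearts, with 1 ChIP and 1 input library per genotype. Per the study's methods, uniquely aligned reads were mapped to mm9 with Bowtie2, and HOMER was used for tag directories and region calling (versions not given in the sources used here). Per the file headers, the authors called regions in histone style against an input library. The normalized tag signal was deposited by the authors as tags per 10000000. The findPeaks score was deposited by the authors without normalization, and its lowest value equals the tag threshold in the file header. The fold over input is a ratio computed by the authors, with 0.5 in place of 0 input tags, and each p-value was deposited by the authors and comes from a Poisson comparison with the input. It was used only to describe the filter of the lists. Windows below 4-fold over input are not in the lists analysed here. The inputs entered only through these columns.

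Regions were assigned by their centre to gene bodies plus 20 kb (GENCODE vM1, whose chromosome names and lengths are those of mm9), and regions in several windows were counted once. Expected counts were computed, not drawn, from the density of regions on each chromosome, evenly or within 10 classes of GC content of 500 bp bins. Exact Poisson and binomial 95% intervals were used, and no test was run, because there was 1 library per genotype. Depth was 57852347 and 62458751 tags. Alternatives changed the fold, score threshold, flank, assignment, merging, expectation and overlap rule. The scripts were tested on simulated data. The members and gene lists were chosen with earlier results of these data known. Named with values were 10 collagen genes of the common heart types, the members with the highest scores and tags, with 3 or more regions, with an overlap, with a region at a start or with none, while other members are given in brief. Intervals came from SciPy 1.17.1, tables from pandas 2.3.3 with NumPy 2.4.6, and figures from matplotlib 3.10.9, all under Python 3.11.15. A sequence and a marker list that the naming rule covers are not reported here.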

Additional observations from a re-analysis of the deposited data

How the results depend on the processing

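*Mdx*HRTΔIKKβ had more collagen regions than *mdx*IKKβf/f in all 9 alternatives that gave a ratio, from 1.56 with the calling threshold at the same multiple of expected tags to 3.5 at 8-fold over input. Of 95 alternative values 71 stayed within 1.5 times a count or within the interval of a ratio, and 24 moved. The counts below are given for *mdx*IKKβf/f and then *mdx*HRTΔIKKβ. At 8-fold over input 4 and 14 regions were left at 4 and 10 genes, with 0 overlaps in each, and the observed over expected count of *mdx*HRTΔIKKβ was 1.36. At 1.5 times the lowest score 0 and 1 regions were left at 0 and 1 genes, with 0 overlaps and observed over expected counts of 0 and 1.03, and no ratio could be computed. At the same multiple of expected tags 56 regions were left in *mdx*HRTΔIKKβ. With the expectation by GC content its observed over expected count was 1.24. The number of regions that overlap the other genotype was 0 in each for gene bodies alone, 2 in each after merging within 10000 bp, and 4 in each when regions within 1000 bp of each other were counted. Without *Col23a1*, and without *Col23a1* and *Col13a1*, chosen after seeing the data, the ratio was 2.23 and 2.09. The observed over expected count was then 1.38 and 1.35 in *mdx*IKKβf/f, and 1.67 and 1.53 in *mdx*HRTΔIKKβ. The cause of these moves was not tested, apart from the fewer regions that stricter thresholds leave by construction. No paired analysis was possible because each genotype had 1 ChIP library and no test was run. Most collagen windows expect fewer than 2 of the listed regions, so counts of 0 to 2 at a single gene are not told apart.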
